A study of Rattus norvegicus with 48 samples.

Results

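miR-192-5p and miR-194-5p are a pair of mature microRNAs that are made, in part, from neighbouring hairpins. They were taken here by name, as 2 of the 188 miRNA columns of the deposited table, and followed across 4 parts of the rat nephron. The tissue came from 3 untreated male Sprague-Dawley rats aged 6 months; all groups share this background, and there was no treated or mutant group. Collecting duct, thick ascending limb of Henle's loop, proximal tubule and glomerulus were cut by laser from frozen kidney sections 8 µm thick, and their small RNA was sequenced. Tubules were located by immunofluorescence (glutathione S-transferase for proximal tubule, Tamm-Horsfall protein for thick ascending limb, aquaporin-2 for collecting duct) and glomeruli by a histochemical stain, so that stain and glomerulus cannot be told apart. Each tubule segment had 3 libraries, 1 per rat, and the glomerulus had 2, from rats 1 and 3. A further 4 runs of a glomerulus library, which the submitters marked as removed, were left out. Their titles also name rat 3, so that 2 glomerulus libraries were titled rat 3 and none rat 2. Rats were taken as titled, and whether these titles are right was not tested. Captured segments hold many cells, so more cells of a type and more of a miRNA per cell cannot be told apart.

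A microRNA guides a repressor complex to messenger RNAs that pair with its seed, bases 2 to 8 counted from the 5′ end. miR-192 and miR-194 are known as miRNAs of epithelia that depend on hepatocyte nuclear factors, such as those of liver, gut and proximal tubule. In the kidney, miR-192 is known for repressing the ZEB transcription factors and for its changes in diabetic and fibrotic disease, and both miRNAs are counted among those that p53 induces. miR-194 is known from the same epithelia and rides on the same primary transcripts.

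The mature sequences show why 1 of the pair belongs to a seed family and the other stands alone. They are from RefSeq (build GRCr8), written 5′ to 3′ with the seed in capitals, and miR-215 is shown because it has the seed of miR-192-5p.
rno-miR-192-5p: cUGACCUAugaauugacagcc
rno-miR-215: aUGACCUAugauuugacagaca
rno-miR-194-5p: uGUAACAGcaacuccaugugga
In the RefSeq table, with 693 names of mature rat miRNAs, the seed UGACCUA occurred in 2 names, miR-192-5p and miR-215. The seed GUAACAG occurred in miR-194-5p alone. Of the 188 miRNA columns 172 were matched to RefSeq by name, and in these each seed was found in 1 column only, that of its member. miR-215 had no column among the 188 of the deposited table, so its level could not be read here. Counted from the 5′ end and aligned without gaps, miR-215 differs from miR-192-5p by C1A, A12U and C20A and is 1 base longer, at 22 against 21 bases.

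miR-194-5p has 2 genes with the same mature sequence. The hairpins of the first locus, from RefSeq, are shown with the mature arm in capitals because they place both members on 1 strand next to each other.
Mir194-2: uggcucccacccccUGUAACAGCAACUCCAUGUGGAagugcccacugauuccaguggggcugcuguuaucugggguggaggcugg
Mir192: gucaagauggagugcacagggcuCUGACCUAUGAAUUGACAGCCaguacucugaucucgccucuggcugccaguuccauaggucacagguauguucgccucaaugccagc
Mir194-2 lies at chr1:212994024-212994108 and Mir192 at chr1:212994209-212994318, both on the plus strand of GRCr8 and 100 bp apart. No other RefSeq gene spans them, and the nearest one, Atg2a, ends 2519 bp before Mir194-2. The second locus holds Mir194-1, at chr13:99382716-99382798, and Mir215, at chr13:99382990-99383086, with 191 bp between them. It lies inside the span of Iars2, the mitochondrial isoleucyl-tRNA synthetase gene (chr13:99363035-99397068). The hairpin of this second miR-194 gene is printed for comparison.
Mir194-1: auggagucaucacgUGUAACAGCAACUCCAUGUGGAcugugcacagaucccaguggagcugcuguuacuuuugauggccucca
Since both genes give the same 22 bases, a value of miR-194-5p is the sum of 2 loci that the reads cannot separate, while that of miR-192-5p comes from 1 locus.

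Values are read counts scaled by the authors with TMM, a method that sets libraries to a common scale, and each is a mean over the 4 flow cell runs of a library. On that scale the summed values of the libraries still ran from 77457 to 255518. miR-192-5p was at 21065, 26006 and 20807 in the proximal tubule of rats 1, 2 and 3. The same rats had 2146, 4246 and 3401 in the thick ascending limb. Collecting duct values were 1238, 2298 and 1837. The glomerulus had 1414 in rat 1 and 761 in rat 3. The 3 proximal tubule libraries stood above all others with no overlap, and the lowest of them was 4.90-fold above the highest library of any other segment. Rat 1 was lowest in both collecting duct and thick ascending limb, and rat 2 the highest in every tubule segment.

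miR-194-5p was at 233, 360 and 323 in the proximal tubule of rats 1, 2 and 3. Thick ascending limb values were 35.4, 33.8 and 30.5, and the collecting duct had 21.4, 42.4 and 28.1. The glomerulus had 10.1 in rat 1 and 15.8 in rat 3, which were the lowest libraries. Here too the proximal tubule did not overlap any other segment, while the values of thick ascending limb and collecting duct overlapped. Of all 188 miRNAs, 10.1% had all 3 proximal tubule libraries above the 8 others.

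**Figure D1:**
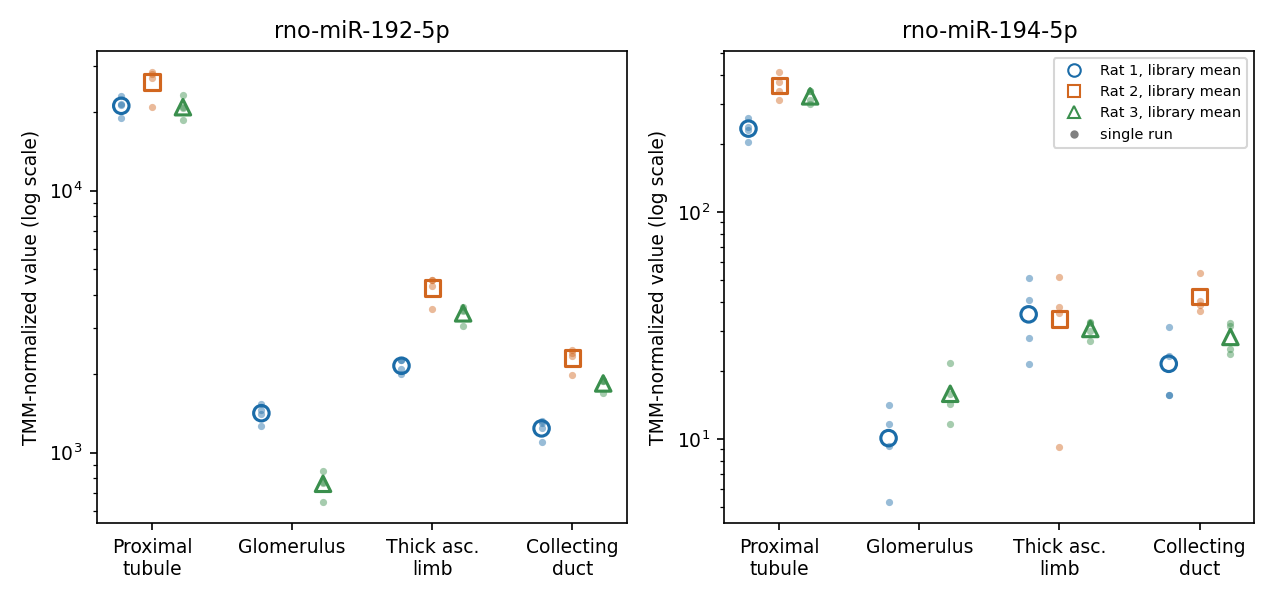
Values of miR-192-5p (left) and miR-194-5p (right) in each library on a log axis, by segment. Open symbols are library means by rat and small points the 4 runs; the 3 proximal tubule libraries lie at 20807 to 26006 and 233 to 360, above every other library.

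The depth behind these values differs strongly between the members. The table's smallest steps give the value of 1 read in each run, and from them the reads of a library over the 188 miRNAs were estimated at 147996 to 1296993. miR-192-5p rested on an estimated 24183 to 138409 reads per proximal tubule library and on at least 1462 reads elsewhere. miR-194-5p rested on 366 to 1896 reads per proximal tubule library, but on 53 and 28 in the glomerulus of rats 1 and 3 and on 52 in the rat 1 thick ascending limb. By counting error alone (exact Poisson interval, 95%), the value of 15.8 in the glomerulus of rat 3 could lie between 10.5 and 22.8, and that of 10.1 in rat 1 between 7.55 and 13.2. These intervals overlapped, which does not show that the 2 values are equal. Such intervals cover counting error only, since PCR copies are not separate molecules. They also hold for the deposited scaling alone. As shares of the summed values, the glomerulus libraries lay further apart for miR-194-5p, at 0.0061% in rat 1 and 0.0204% in rat 3.

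As a share of the summed values of a library, miR-192-5p took 14.1%, 15.0% and 9.87% in the proximal tubule of rats 1, 2 and 3 and ranked between 2 and 3 of 188. Thick ascending limb shares were 1.499%, 3.66% and 1.98%, with ranks from 5 to 13. It was 0.674%, 0.899% and 0.982% in the collecting duct, and 0.857% and 0.982% in the glomerulus, where ranks ran from 14 to 17 over both segments. miR-194-5p took 0.153% to 0.207% in the proximal tubule, at ranks 39 to 43, and at most 0.0292% in any library of another segment, at ranks 76 to 122. On the scale of shares, then, collecting duct and glomerulus overlapped for both members, and every thick ascending limb library was above every collecting duct library, as it was for 15.4% of all miRNAs.

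Both members differed among the 4 segments by limma's F-test (adjusted p = 1.4e-18 for miR-192-5p and 4.7e-08 for miR-194-5p), as did 24.5% of all miRNAs. Differences were tested on log2(value + 1), averaged over runs, with limma over all 188 miRNAs and Benjamini-Hochberg adjustment at 0.05, with the rat as a block. The pair was named for the proximal tubule with earlier results of these data known, so its proximal tubule tests are no independent evidence. Against the mean of the other segments, miR-192-5p was higher in the proximal tubule by 3.60 ± 0.38 (log2, SE), which is 12.1-fold, with a limma adjusted p of 4.2e-18. miR-194-5p was higher by 3.66 ± 0.56, which is 12.6-fold, with a limma adjusted p of 8.5e-09. Each was higher in 3 of 3 rats. In this comparison 11.2% of the 188 miRNAs were called higher. By size of the difference miR-194-5p ranked 4 and miR-192-5p ranked 6 of 188, and the median of all miRNAs was 0.36. The model gave miRNAs of like abundance 1 shared variance, on which these small adjusted p rest. An exact two-sided permutation of segment labels within rats, which uses only a member's own values, gave p = 0.0208 for each, the smallest that its 48 arrangements allow.

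**Figure D2:**
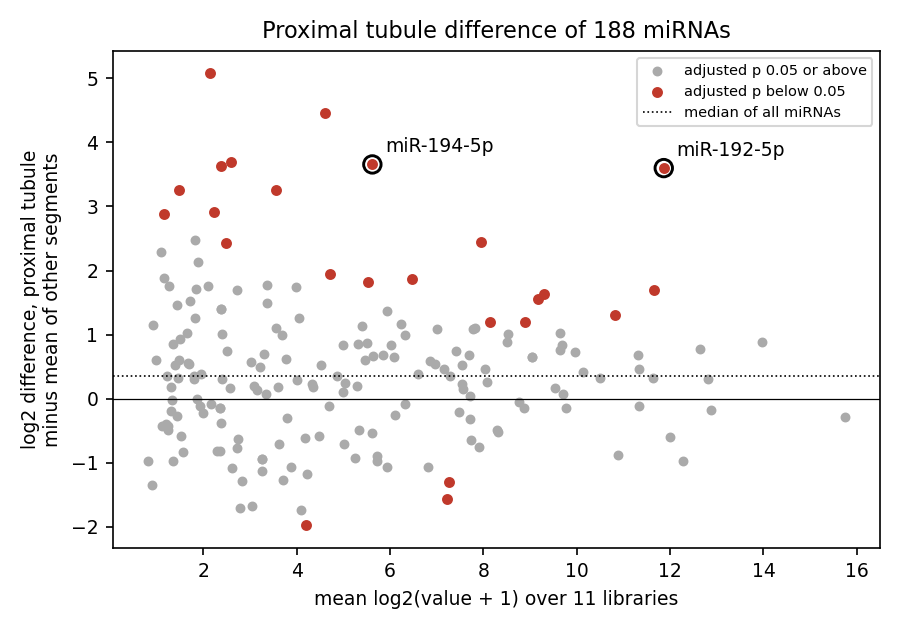
Log2 difference of each of 188 miRNAs between the proximal tubule and the mean of the other segments, against its mean log2(value + 1) over 11 libraries. Red points passed an adjusted p of 0.05 and the circled members lie at 3.60 and 3.66; the dotted line is the median of all miRNAs, 0.36.

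Taken segment by segment, both members were higher in the proximal tubule than in each of the others, which held for 2.13% of the 188 miRNAs. Against the glomerulus miR-192-5p differed by 4.26 ± 0.52 (log2, SE) and miR-194-5p by 4.40 ± 0.78, with limma adjusted p of 5.5e-14 and 5.6e-07; 13.8% of miRNAs were called higher there. Against the thick ascending limb the differences were 2.84 ± 0.45 and 3.24 ± 0.67 (limma adjusted p = 1.1e-07 and 0.00010), with 6.91% of miRNAs called higher. Against the collecting duct they were 3.69 ± 0.45 and 3.33 ± 0.67 (limma adjusted p = 2.2e-13 and 2.6e-05), with 5.85% called higher. Without rat 2, the miR-194-5p difference from the thick ascending limb was 3.06, with a limma adjusted p of 0.056.

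Within rats, the miR-192-5p value of the proximal tubule was 9.82, 6.12 and 6.12 times that of the thick ascending limb in rats 1, 2 and 3. Against the collecting duct it was 17.0, 11.3 and 11.3 times as high. On the deposited scaling rats 2 and 3 thus had nearly the same folds over these 2 segments, and rat 1 the larger ones. Over the glomerulus rat 1 had the smaller fold on that scaling, 14.9 against 27.3 in rat 3. For miR-194-5p the order was not the same: rat 1 had the smallest fold over the thick ascending limb, 6.59, against 10.7 and 10.6 in rats 2 and 3. Its folds over the collecting duct were 10.9, 8.49 and 11.5. The order of rats depended on the scaling for both members. As a share of summed values miR-192-5p took 14.1% in the proximal tubule and 0.857% in the glomerulus of rat 1. In rat 3 these shares were 9.87% and 0.982%, so that rat 1 had the larger fold. Collecting duct shares in rats 2 and 3 were 0.899% and 0.982%, beside 15.0% and 9.87% in the proximal tubule, so these folds were not alike. For miR-194-5p the proximal tubule shares were 0.156%, 0.207% and 0.153% in rats 1, 2 and 3. Its collecting duct shares were 0.0117%, 0.0166% and 0.0150%. By share, rat 3 thus had the smallest fold over the collecting duct, where it had the largest on the deposited scaling.

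Below the proximal tubule, the mean of miR-192-5p ran in the order thick ascending limb (3265 ± 1057, SD, n = 3), collecting duct (1791 ± 531, n = 3) and glomerulus (1088 ± 462, n = 2). miR-192-5p was higher in the thick ascending limb than in the collecting duct of each rat, by 1.73-, 1.85- and 1.85-fold in rats 1, 2 and 3; 7.45% of all miRNAs were higher in each of the 3 rats. The limma difference was 0.85 ± 0.45 (log2, SE) with an adjusted p of 0.40 (unadjusted limma p = 0.0595), and so it did not pass. No miRNA was called higher in this comparison (0%), and 2.13% were called lower. At an unadjusted p below 0.05, 4 were higher, and miR-192-5p was not among them. The call depended on the scaling. With the same total in every run the difference was 1.397 (limma adjusted p = 0.0021), by median of ratios 1.31 (0.0040) and by quantiles 1.48 (0.043). With the tubule segments fitted without the glomerulus, or with either glomerulus library left out, the difference stayed at 0.85 and passed, with limma adjusted p of 0.034, 0.032 and 0.032.

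The glomerulus and the thick ascending limb differed for miR-192-5p by -1.43 ± 0.52 (log2, SE), with a limma adjusted p of 0.054 just short of the threshold, and 7.98% of miRNAs were called lower in the glomerulus. Without the rat block the difference was -1.60 (limma adjusted p = 0.0078). Without the glomerulus library of rat 1 it was -2.08 (4.8e-05), and without that of rat 3 it was -0.77, which did not pass. Glomerulus and collecting duct differed by -0.57 ± 0.52, with a limma adjusted p of 0.50, against 11.2% of miRNAs called lower. Without the glomerulus library of rat 1 it was -1.22, and without rat 1 it was -1.28, and both passed (limma adjusted p = 0.021 and 0.038). The order of glomerulus and collecting duct is not fixed by the data: the glomerulus was 1.14-fold above the collecting duct in rat 1 and 2.42-fold below it in rat 3, and the sign turned under each rescaling, at 0.30 with the same total, 0.07 by median of ratios and 0.31 by quantiles.

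For miR-194-5p the means were 33.2 ± 2.48 in the thick ascending limb, 30.7 ± 10.7 in the collecting duct (SD, n = 3 each) and 12.9 ± 4.05 in the glomerulus (n = 2), against 306 ± 65.5 in the proximal tubule. The difference of thick ascending limb from collecting duct was 0.09 ± 0.67 (log2, SE; limma adjusted p = 0.96), with the former at 1.65, 0.796 and 1.08 times the latter in rats 1, 2 and 3. The glomerulus differed from the thick ascending limb by -1.16 ± 0.78 and from the collecting duct by -1.07 ± 0.78, with limma adjusted p of 0.41 and 0.39. On the deposited scaling the glomerulus was lower in both rats in either comparison. By share of summed values this held in rat 1 only. Its glomerulus had 0.0061%, its thick ascending limb 0.0247% and its collecting duct 0.0117%. The rat 3 glomerulus, at 0.0204%, was above that rat's thick ascending limb (0.0178%) and collecting duct (0.0150%). With the same total in every run, the differences from these segments were -0.84 and -0.23, and neither passed.

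The pair was then set against itself, since the ratio of miR-192-5p to miR-194-5p within a library is not moved by any factor that multiplies a whole library. Both are of nearly the same length, but ligation of adapters favours some sequences, so the level of the ratio is a reading of this protocol, and its change between segments is the measure of interest. The ratio was 90.4, 72.2 and 64.3 in the proximal tubule of rats 1, 2 and 3, and 57.8, 54.1 and 65.3 in the collecting duct. It was 60.6, 126 and 111 in the thick ascending limb, and 140 and 48.1 in the glomerulus of rats 1 and 3. The proximal tubule ratios fell inside the range of the other segments, while the 2 glomerulus libraries lay at the opposite ends of that range.

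**Figure D3:**
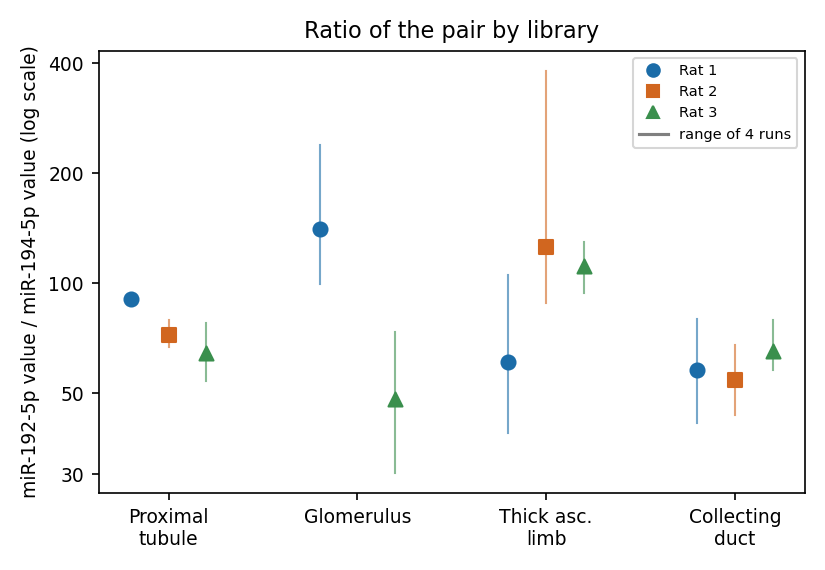
Ratio of the miR-192-5p value to the miR-194-5p value in each of 11 libraries, on a log axis by segment, with the range over the 4 runs as a line. The proximal tubule libraries lie between 64.3 and 90.4, within the range of 48.1 to 140 of the other libraries.

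Within rats, the log2 ratio in the proximal tubule differed from the mean of the other libraries by 0.21, -0.28 and -0.09 in rats 1, 2 and 3. The mean difference was -0.05, with p = 0.875 in an exact two-sided permutation test within rats (n = 48 arrangements). Among the 4 segments the exact permutation test gave p = 0.493 (3456 arrangements). No difference of ratio between segments was detected, which with 3 rats does not show that the ratios are equal. Libraries of 1 segment also differed in the ratio. With runs pooled by reads and intervals for counting error only, the proximal tubule ratio was 90.0 in rat 1 (exact binomial 95% interval 84.1 to 96.3), 73.0 in rat 2 (69.8 to 76.4) and 66.1 in rat 3 (59.6 to 73.5). In the same terms the glomerulus ratio was 132 in rat 1 (101 to 177) and 52.2 in rat 3 (36.0 to 78.9). In the thick ascending limb it was 63.0 in rat 1 (47.9 to 84.6), 114 in rat 2 (94.1 to 139) and 115 in rat 3 (101 to 132). Single runs overlapped there, from 38.9 to 105 in rat 1 and from 88.2 to 381 in rat 2. Of the rats measured, rat 1 had the lowest ratio in the thick ascending limb and the highest in the glomerulus and the proximal tubule.

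Over the 11 libraries the log2 values of the members had a Pearson r of 0.953, with the 3 proximal tubule libraries apart from the rest in both. Over the 8 libraries outside the proximal tubule r was 0.633, and with segment means removed it was 0.102 (n = 11). These are descriptions over libraries that share rats, with no test.

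The miRNAs most like each member, by Pearson r of log2(value + 1) over 11 libraries among 125 others with a mean of at least 10, began with its partner in both cases. For miR-192-5p there followed miR-411-5p at 0.916, miR-541-5p at 0.893, miR-21-5p at 0.870 and miR-203b-3p at 0.861. For miR-194-5p there followed miR-411-5p at 0.935, miR-21-5p at 0.884, miR-541-5p at 0.8294 and miR-21-3p at 0.808. miR-411-5p and miR-541-5p come from the imprinted Dlk1-Dio3 cluster, miR-21 is known from injury and fibrosis, and miR-203b-3p is read from a hairpin that overlaps that of miR-203a. Over the 9 tubule libraries alone each member's partner was the most like, at 0.962, and miR-541-5p and miR-411-5p came next for both. Both rankings include the proximal tubule libraries, which lay apart from the rest for both members. No ranking was taken without them, so the tubule ranking is no independent evidence.

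How much of a miRNA remained outside the proximal tubule differed among these miRNAs. miR-192-5p stood at 14.4% ± 4.67 of its proximal tubule mean in the thick ascending limb (SD, n = 3), 7.92% ± 2.35 in the collecting duct (n = 3) and 4.81% ± 2.04 in the glomerulus (n = 2). miR-194-5p stood at 10.9% ± 0.812, 10.03% ± 3.51 and 4.23% ± 1.33 in the same order. miR-541-5p had 6.13% ± 4.75, 4.72% ± 1.82 and 8.80% ± 11.04, and miR-411-5p had 2.13% ± 2.50 and 5.11% ± 8.56 in the tubule segments and was at 0 in both glomerulus libraries. miR-21-5p kept far more, 38.6% ± 10.5, 45.01% ± 12.4 and 25.2% ± 11.4. Whether tissue of neighbouring proximal tubules contributed to the levels of the pair in the other segments was not tested.

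**Figure D4:**
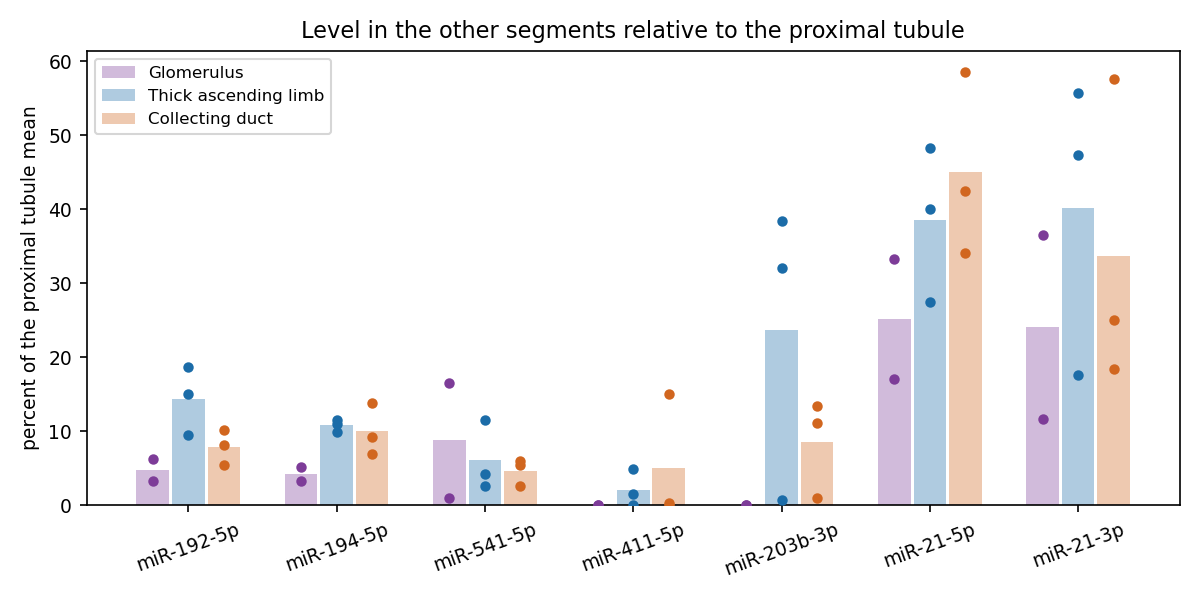
Level of miR-192-5p, miR-194-5p and the miRNAs most like them in the other segments, as a percentage of each one's proximal tubule mean; bars are means and points are libraries. Both members lie under 20% in every library, while miR-21-5p reaches 58.5% in the collecting duct.

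Among miRNAs known to be tied to miR-192 in renal fibrosis and TGF-beta signalling, 8 of 12 listed were measured, and 1 of the 8 rose in the proximal tubule against the mean of the other segments, a share near the 11.2% of all miRNAs called higher. It was miR-21-5p, at 1149 to 1278 in the proximal tubule and 210 to 719 elsewhere, 2.95-fold higher (limma adjusted p = 0.0016). The median log2 difference of the list was 0.60, against 0.36 over all miRNAs. Its miR-200 members, which like miR-192 act on the ZEB factors, did not pass: miR-200b-3p had 479 ± 186 in the collecting duct, 260 ± 48.1 in the proximal tubule and 268 ± 48.7 in the thick ascending limb (SD, n = 3 each), against 42.0 ± 38.6 in the glomerulus (n = 2). miR-29a-3p, known for repressing collagens, had 304 ± 65.9 in the proximal tubule and a log2 difference of 0.27 (limma adjusted p = 0.73).

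Of 5 listed p53-induced miRNAs 4 were measured and 0 passed by limma, beside the 12.8% of all miRNAs called in either direction. Of the 4, 1 was at an unadjusted p below 0.05, a threshold at which the share of all miRNAs was not taken. The median log2 difference was -0.27, against 0.36 over all miRNAs. miR-107-3p had the highest value of them, at 381 ± 67.4 in the proximal tubule (SD, n = 3), with a log2 difference of 1.11 (limma adjusted p = 0.072). miR-145-5p was at 28.7 ± 12.1 with a difference of -0.11 (limma adjusted p = 0.91). miR-34a-5p, the best known p53 target, was at 0 in 5 of 11 libraries and miR-34c-5p in 1.

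Markers of other cells were read in the same libraries. The 4 measured of 5 miR-200 family miRNAs, which mark epithelium, summed to 36.1 to 128 in the glomerulus and 429 to 673 in the proximal tubule. In the collecting duct the sum was 827 to 1595, and in the thick ascending limb 412 to 792. The glomerulus libraries, where miR-194-5p was lowest on the deposited scaling, were thus also low in epithelial miRNAs on that scaling. By share of summed values, miR-194-5p was lowest in the rat 1 glomerulus, at 0.0061%. The rat 3 glomerulus, at 0.0204%, lay above every collecting duct library, of which the highest had 0.0166%. Both endothelial arms, miR-126a-3p and miR-126a-5p, summed to 1249 to 1801 in the proximal tubule and 4299 to 6290 in the glomerulus. miR-143-3p and miR-145-5p, of smooth muscle and mesangial cells, summed to 6119 to 8034 in the proximal tubule and 10382 to 16388 in the glomerulus. The 2 measured of 8 blood miRNAs, miR-142-5p and miR-150-5p, summed to 24.1 to 51.6 in the proximal tubule and 25.1 to 39.05 in the thick ascending limb, and to 78.7 to 117 in the glomerulus and 73.0 to 118 in the collecting duct. The 2 measured of 3 mesenchymal miRNAs, miR-199a-3p and miR-199a-5p, summed to 76.7 to 130 in the proximal tubule and 13.0 to 72.3 in the glomerulus. Their sum was 54.7 to 155 in the thick ascending limb and 69.3 to 172 in the collecting duct. The arms differed: miR-199a-3p had means of 89.5 ± 24.4 in the proximal tubule (SD, n = 3) and 24.5 ± 26.6 in the glomerulus (n = 2). For miR-199a-5p these were 13.4 ± 3.63 and 18.2 ± 15.4. By limma 0 members of these lists passed in the proximal tubule at an adjusted p below 0.05, again beside 12.8% of all miRNAs called in either direction. At an unadjusted p below 0.05 were 1 of the miR-200 family and 1 of the endothelial arms, and the share of all miRNAs at that threshold was not taken. The part of these cells in the levels of the pair was not tested.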

How the data were processed

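The authors deposited 1 table of TMM-normalized signal per mature miRNA and run, filtered for low counts, per its file name. The submitters' processing notes name Partek 6.0, Bowtie2 2.2.5, Bowtie 1.0.0 and build rn6. Reads were 50 bp. The 44 runs (11 libraries on 4 flow cells) were assigned by title. Values were used as deposited and averaged over runs; tests used log2(value + 1), which understates folds of low miRNAs. Limma 3.58.1 in R 4.3.3 fitted segment and rat with a variance trend over 188 miRNAs, all tests two-sided. The model leaves 5 residual degrees of freedom.

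The rat is a replicate block because libraries of 1 rat come from the same animal. Library deviations from segment means correlated weakly, with a median r of 0.083 in 15 same-rat pairs and -0.067 in 30 others (miRNAs with a mean of at least 100).

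Reads were estimated from the smallest step of each run. Between 88.3% and 99.0% of values up to 30 reads were whole within 0.03, so no count test was run. The named miRNAs are the members, the 5 most like each, and listed miRNAs that passed or were abundant; further list members are named as examples, chosen after their values were seen. The members, lists and comparisons were chosen with earlier results of these data known.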

Additional observations from a re-analysis of the deposited data

Results flagged for a closer look

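Among 22 sets of 4 runs (2 members in 11 libraries), 1 held a run far from the others. miR-192-5p in the collecting duct library of rat 3 read 1692 on flow cell D, against 1878 to 1895 on the other flow cells, and its gap was 0.914 of the whole range of the 4 runs, above Dixon's 95% critical value. Chance flags about 1 in 20 such sets.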

How the results depend on the processing

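Every alternative run kept both members higher in the proximal tubule than in each other segment, and past the threshold with 1 exception, miR-194-5p against the thick ascending limb without rat 2 (3.06 on the log2 scale, limma adjusted p = 0.056). Over the alternatives other than libraries or rats left out, the difference from the mean of the others ran from 2.81 to 3.70 for miR-192-5p and from 3.19 to 3.86 for miR-194-5p, and with 1 library or rat left out from 3.38 to 3.82 and from 3.55 to 3.75. Where a rat or library was left out and a segment kept 1 library, that library was assumed to vary like the others. With alternatives added after seeing the data, the exact permutation within rats gave p = 0.0208 for each member, and pooling runs by reads put the ratio difference at -0.018 (exact permutation p = 0.958). The smaller contrasts moved, and where no cause is given the cause was not tested.

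For miR-192-5p between thick ascending limb and collecting duct, the difference passed at 0.86 with array weights, 1.397 with the same total, 1.31 by median of ratios, 1.48 by quantiles and 0.85 with tubule segments only, and ran from 0.67 to 1.08 with 1 library or rat left out. Between glomerulus and thick ascending limb it passed at -1.60 with no replicate block, -1.72 with rat as a random effect, -1.43 with the filter on a mean of at least 10, which tests fewer miRNAs, -1.09 with the same total, -1.24 by median of ratios, and -1.48 and -1.38 on flow cells A and C alone; left-out values ran from -2.16 to -0.73. Between glomerulus and collecting duct the sign turned to 0.30, 0.067 and 0.31 by same total, median of ratios and quantiles, and left-out values ran from -1.28 to 0.11, passing without rat 1 or its glomerulus library. For miR-194-5p between thick ascending limb and collecting duct, the value turned to -0.11 on flow cell D alone and ran from -0.20 to 0.40 with 1 library or rat left out; its difference between proximal tubule and thick ascending limb ran from 2.99 to 3.52. The proximal tubule difference in the log2 ratio of the pair, -0.05, turned to 0.37 with a pseudocount of 10, which narrows differences among low values, and to 0.11 and 0.012 on flow cells A and B, and left-out values ran from -0.29 to 0.18; of these values 0 had a p below 0.05 by exact permutation.

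Counts of called miRNAs moved more. For the proximal tubule against the mean of the others, 24 became 46, 49, 46 and 42 by same total, median of ratios, quantiles and tubule segments only, and 9 (without the rat 3 proximal tubule) to 62 (without the rat 1 glomerulus) with libraries left out. Against the glomerulus, 33 became 15 with array weights, 50 by same total, 51 by median of ratios and 18 on flow cell D, and 20 to 73 with the same libraries left out. Against the thick ascending limb, 15 became 8 with no variance trend, 43 with array weights, 39 with tubule segments only, 9 on flow cell B and 5 on flow cell D, and 3 (without rat 2) to 37 (without the rat 1 glomerulus). Against the collecting duct, 19 became 11 with a random effect, 42 with array weights, 38, 41 and 37 by the rescalings in the order above, and 41 with tubule segments only, and 7 to 40 with the same rat or library left out. Between thick ascending limb and collecting duct, 4 became 7 with no replicate block, 1 with a random effect, with no trend and on flow cell D, 20 with array weights, 9 by median of ratios and 26 with tubule segments only, and 0 (without rat 2 or its collecting duct) to 26 (without the rat 1 glomerulus). Between glomerulus and thick ascending limb, 21 became 13 with array weights and 43, 45 and 32 by rescaling, and 15 (without the rat 3 thick ascending limb) to 44 (without the rat 1 glomerulus). Between glomerulus and collecting duct, 28 became 16 with array weights and 51, 44 and 44 by rescaling, and 19 (without rat 2 or rat 3) to 67 (without the rat 1 glomerulus). The replicate block changed no other call of the members. Rescaling moved the median proximal tubule difference of all miRNAs from 0.36 to 0.22, 0.07 and -0.03. Depth limits miR-194-5p in the glomerulus, with 28 and 53 reads.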

Other observations

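Flow cell D held fewer reads than the others, with a median of 71299 per run (n = 11) against 183880 (n = 33) on flow cells A, B and C. miR-192-5p was lowest on flow cell D in 10 of 11 libraries, which was so in 10 or more libraries for 5 of the 65 miRNAs with a mean of at least 100. Its median log2 difference between flow cell D and the others was -0.22, and that of miR-194-5p was -0.21, against -0.0071 as the median of the 65 miRNAs. miR-194-5p was lowest on flow cell D in 4 of 11 libraries. All libraries were run on all flow cells. Whether the difference of flow cell D was the same in every segment was not tested. The widest spread between runs was that of miR-194-5p in the thick ascending limb of rat 2, from 9.25 on flow cell D to 51.9 on flow cell C, where the lower value came from 3 reads.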
